A study of Mus musculus with 59 samples.

Results

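The genes described here were the TWEAK receptor Tnfrsf12a, the TNF receptors Tnfrsf1a and Tnfrsf1b, and 7 genes of the NF-kappaB pathway: the kinase gene Map3k14, the Rel subunit genes Nfkb1, Nfkb2 and Relb, and the regulators Nfkbia, Bcl3 and Tnfaip3. They were chosen by gene symbol, and 10 of 10 symbols were found among the 47643 genes in the deposited table of TPM values (a transcript level corrected for length and scaled to the same total in every library). The table covered 59 muscle RNA-seq libraries from female mice of the NCI Ath/nude strain aged 4 months, a strain that lacks a thymus and so tolerates human tumours. All mice carried a patient-derived human melanoma under the skin of the flank, either a cachectic (CAC) line that causes muscle wasting or a non-cachectic (NONCAC) line that does not. The diaphragm was sampled from mice that were also given recombinant Fibcd1 (rFibcd1, a protein secreted by muscle) or a mock injection. Diaphragm groups held 10 libraries each for CAC mock, CAC rFibcd1 and NONCAC rFibcd1, and 9 for NONCAC mock. The CAC diaphragm groups analysed here hold more libraries than the study's text gives for its own analysis, and which libraries it used is not given in the sources used here. The limb muscles tibialis anterior (TA, a fast muscle) and soleus (SOL, a slow muscle) had 5 CAC and 5 NONCAC libraries each, with no injection named in the labels. Since each melanoma was a single xenograft line and no tumour-free mice were analysed here, a CAC to NONCAC difference is the difference between 2 tumour lines.

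TWEAK is a cytokine of the TNF family that binds Fn14, the product of Tnfrsf12a, and Fn14 is known in skeletal muscle as a receptor that rises after injury, denervation and disuse. TNF receptors 1 and 2 (Tnfrsf1a and Tnfrsf1b) and Fn14 recruit adaptor proteins that switch on NF-kappaB. In the canonical branch I kappa B alpha (Nfkbia) holds p50-containing dimers (p50 is cut from the Nfkb1 product p105) in the cytoplasm until it is degraded. In the non-canonical branch the kinase NIK (Map3k14) drives the cutting of p100 (Nfkb2) to p52, which pairs with RelB. Bcl3 is a nuclear I kappa B family protein that binds p50 and p52, and A20 (Tnfaip3) is a ubiquitin-editing enzyme that shuts the pathway down. Nfkbia, Nfkb2, Relb, Bcl3 and Tnfaip3 are themselves textbook targets of NF-kappaB, and for that reason promoter sequences of Nfkbia, Nfkb2, Bcl3 and Tnfaip3 are shown first.

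RefSeq promoter windows (GRCm38.p6, 250 bases before to 50 bases after a transcription start) were listed for 8 of the 10 genes, that is for all but Relb and Nfkb1. A match to the 10-base kappaB consensus, searched on both strands with overlapping matches allowed, was found in a window of 4 of these 8 genes, Nfkbia, Nfkb2, Tnfaip3 and Bcl3. Of all 32851 windows 4.51%, and 5.14% of 27025 gene symbols, held a match. The windows of Tnfrsf12a, Tnfrsf1a, Tnfrsf1b and Map3k14 did not contain these letters, which says nothing of more distant sites. The stretches below are read 5′ to 3′ on the strand of the gene, with the matched 10 bases, or overlapping matches, in capitals. Nfkbia and Tnfaip3 are given as the 100 bases before the start and Tnfrsf1a as the same stretch of a gene without a match. Nfkb2 and Bcl3 are given as the 30 bases around a match, because those matches overlap annotated first exons. The Bcl3 match begins 3 bases after the start. Matches are a description of letters and not of bound sites.
Nfkbia, chr12:55492648-55492747, minus strand: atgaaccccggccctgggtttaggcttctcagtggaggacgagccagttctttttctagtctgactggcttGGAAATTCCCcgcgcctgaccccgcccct
Tnfaip3, chr10:19015411-19015510, minus strand: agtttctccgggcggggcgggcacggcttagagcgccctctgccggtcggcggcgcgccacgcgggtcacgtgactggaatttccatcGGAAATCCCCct
Nfkb2, chr19:46304688-46304717, plus strand: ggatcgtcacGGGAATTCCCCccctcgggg
Bcl3, chr7:19822734-19822763, minus strand: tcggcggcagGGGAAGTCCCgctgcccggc
Tnfrsf1a, chr6:125349623-125349722, plus strand: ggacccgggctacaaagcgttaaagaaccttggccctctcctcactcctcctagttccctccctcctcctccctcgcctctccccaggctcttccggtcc

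Between 16436 and 19456 genes were above 0 in each library, and muscle fibre markers summed to 33340 to 86000 TPM. The deposited TPM give no read depth, so no counting error can be attached to a value. Transcripts of the mitochondrial genome took a smaller share of the total in CAC than in NONCAC libraries (group medians of 38.7% and 47.3% in mock diaphragm, 40.6% and 47.7% in TA, 30.6% and 41.0% in soleus). The median log2 fold change of all genes tested was 0.20 in mock diaphragm, 0.41 in TA and 0.09 in soleus, and values of single genes are to be read against it. The libraries also fell into 36 with 5.60 to 22.8 TPM and 23 with at most 0.428 TPM of the processed pseudogene Pcna-ps2, a split that no label names. In the limb muscles it coincides with the tumour line (10 of 10 CAC libraries high, 10 of 10 NONCAC libraries low), so the 2 cannot be told apart there. In the diaphragm 9 of 10 CAC mock libraries were high against 3 of 9 NONCAC mock libraries. Macrophage markers (7 of 8 listed in the table) summed to 205 to 763 TPM in NONCAC and 353 to 1546 TPM in CAC mock diaphragm, 27.9 to 54.4 and 45.4 to 317 TPM in TA, and 96.6 to 139 and 78.0 to 379 TPM in soleus. Neutrophil markers summed to 4.05 to 25.4 and 11.3 to 62.8 TPM, 1.28 to 4.28 and 8.06 to 57.0 TPM, and 3.44 to 5.31 and 8.48 to 33.6 TPM in the same order. Fibroblast markers were lower in CAC soleus, where 3 of 6 were called lower (median log2 fold change -0.89), beside 901 of all 11957 genes tested. The fibroblast sums ran from 562 to 770 TPM in NONCAC and 219 to 648 TPM in CAC libraries. No marker of these lists was at 0 throughout a group. The part of these cells in the results that follow was not tested, and in bulk muscle a change in the number of cells of a type and a change in RNA per cell cannot be told apart.

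Among NONCAC mice all 10 genes had their lowest mean level in TA, and most genes tested were called lower in TA than in either other muscle. Of the 10 genes, 8 were higher in mock diaphragm than in TA (limma on log2(TPM + 1), Benjamini-Hochberg adjusted over all genes tested, called at an adjusted p under 0.05), where 64% of all 13501 genes tested were called higher. Against soleus 8 of 10 were lower in TA (63.9% of all genes called lower), and 2 of 10, Tnfrsf1b and Bcl3, were higher in diaphragm than in soleus (16.8% of all genes called higher). Tnfrsf12a was not called for TA against soleus (log2 difference -1.285, limma adjusted p = 0.058). A limma fit of these 2 groups alone called it (adjusted p = 0.00298), beside 9972 of 11616 genes. The shares for TA are near those of all genes, and median-ratio scaling left 6 of 10 genes called for diaphragm against TA and 4 of 10 for TA against soleus, beside 9578 and 7197 of the 13501 genes. Bcl3, with no NONCAC TA library at 1 TPM, entered these fits through other groups. Over genes with at least 1 TPM in a library of both groups, 7 of 9 were higher in diaphragm than in TA (60.6% of all genes) and 7 of 9 lower in TA than in soleus (67.2%). Tnfrsf1a averaged 36.3 TPM ± 4.38 (SD, n = 9) in diaphragm, 34.0 ± 3.07 (n = 5) in soleus and 11.2 ± 1.30 (n = 5) in TA. Its TA libraries lay below every library of the other muscles. Bcl3 averaged 3.01 TPM ± 0.869 in diaphragm, 1.33 ± 0.453 in soleus and 0.453 ± 0.186 in TA. Nfkbia averaged 35.3 TPM ± 5.74 in diaphragm, 36.5 ± 6.24 in soleus and 23.9 ± 4.68 in TA. The lower Nfkbia in TA was not kept after median-ratio scaling, which sets the median gene equal between libraries: its log2 difference between diaphragm and TA went from 0.55 to -0.011, and between TA and soleus from -0.60 to 0.012. Tnfaip3 was the lowest of the 10 genes in diaphragm and soleus, at 1.85 TPM ± 0.740 and 1.30 ± 0.579, and did not differ between muscles by this test. In these NONCAC groups fibroblast markers summed to 736 to 1208 TPM in diaphragm, 149.5 to 283 in TA and 562 to 770 in soleus. Mesothelium markers summed to 55.1 to 162 TPM in diaphragm, at most 0.251 in TA and at most 0.887 in soleus. The part of these cells in the muscle differences was not tested.

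The genes divide into those called higher with the CAC tumour in every muscle and those that were not. In mock diaphragm 6 of 10 genes were higher in CAC than in NONCAC mice (30.9% of 13426 genes called higher). Median-ratio scaling left 4 of 10 called there (2121 of 13426 genes called in either direction), and the Pcna-ps2 split as a term also left 4 (2059 of 13426). In TA Bcl3 passed the filter on low values through its CAC libraries alone, so its TA call is set aside. Of the other 9 genes 7 were higher there (55.8% of the 10924 genes with at least 1 TPM in a library of both groups). With Bcl3 it was 8 of 10, beside 56.4% of all 11105 genes. In soleus 8 of 10 were higher (17.5% of 11957 genes), and none was called lower in any of the 3 comparisons. Tnfrsf1a, Tnfrsf1b, Map3k14, Nfkb2 and Nfkbia, 5 of 9, were called higher in each muscle, against 12.1% of the 10753 genes that reached 1 TPM in both groups of each muscle. With Bcl3 it was 6 of 10, against 12.3% of the 10914 genes tested in all 3. Of these genes Tnfrsf1b and Nfkb2 lost the diaphragm call with median-ratio scaling and with the Pcna-ps2 split as a term. Nfkb2 also lost the TA call with median-ratio scaling. CAC libraries lay wholly above NONCAC libraries for 3 of the 10 genes in mock diaphragm (4.07% of all genes), 7 of 9 in TA (48.4%) and 7 of 10 in soleus (14.6%). Their median log2 fold change was 0.53 in mock diaphragm, 0.89 in TA without Bcl3 and 0.78 in soleus. In TA the call share and the median of all genes were themselves high, so the TA counts stand closer to background than those of soleus.

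**Figure D1:**
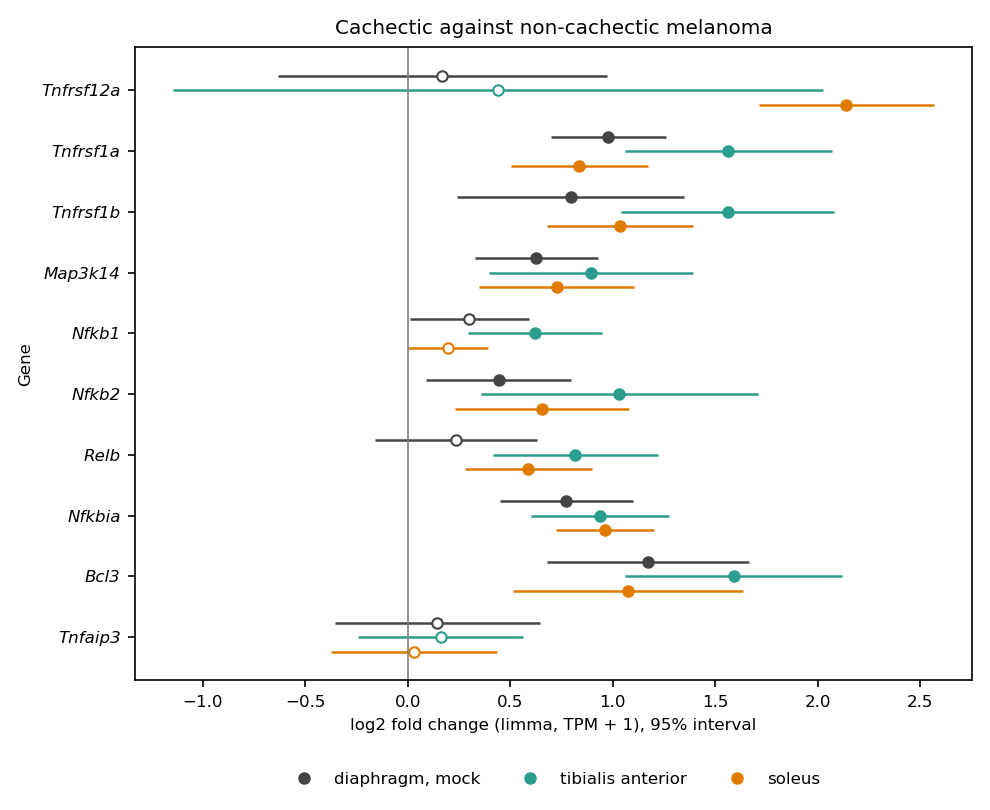
Log2 fold change (CAC against NONCAC, TPM + 1, x axis) of each of the 10 genes (y axis) in mock diaphragm, TA and soleus, with 95% intervals from limma. Filled points passed the adjusted p threshold of 0.05 and open points did not. Tnfrsf12a stands at 2.14 in soleus with open points in the other muscles, and Tnfaip3 has open points in all 3. The filled TA point of Bcl3 is that of a gene with no NONCAC library at 1 TPM.

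Tnfrsf12a, the gene of the TWEAK receptor Fn14 (GRCm38 as for all positions that follow, chr17:23675445-23677468, minus strand), was 4.41 times higher (on the TPM + 1 scale) in the soleus of CAC mice, and in no other muscle did it pass the test. The 5 NONCAC soleus libraries held 37.2, 45.4, 48.6, 60.6 and 63.0 TPM, and the 5 CAC libraries 165, 198, 210, 234 and 348 TPM. The lowest CAC library was thus above the highest NONCAC library by more than the width of the NONCAC range. On the log2 scale the change was 2.14 (SE 0.20, limma adjusted p = 4.74e-05), and with each library left out in turn it ran from 1.98 to 2.25.
In TA the NONCAC libraries held 9.11, 13.0, 23.4, 29.0 and 38.0 TPM of Tnfrsf12a, and the CAC libraries 7.04, 15.3, 16.3, 35.3 and 225 TPM. Apart from the library at 225 TPM the ranges overlapped. The change was 0.44 on the log2 scale (95% interval -1.15 to 2.02, limma adjusted p = 0.60), and without that library it was -0.31. That TA library, numbered 3 in its group, was the highest of its group for 10 of the 10 genes and had the lowest mitochondrial share of its group, 25.1%. Its neutrophil, macrophage, endothelium and fibroblast marker sums were the highest of its group (57.0, 317, 237 and 460 TPM), and its muscle fibre marker sum was the lowest (42070 TPM).
In mock diaphragm Tnfrsf12a ran from 11.6 to 70.8 TPM in NONCAC mice (median 22.6) and from 11.1 to 100.1 TPM in CAC mice (median 27.2). The groups overlapped almost wholly, and the log2 fold change of 0.17 had a 95% interval of -0.63 to 0.97 (limma adjusted p = 0.75). After median-ratio scaling both values that did not pass changed sign, to -0.05 in diaphragm and -0.04 in TA, while soleus had 2.05. The spread within a diaphragm group was wide: the SD was 23.2 TPM around a mean of 32.9 TPM in NONCAC mock libraries and 27.3 around 36.7 TPM in CAC mock libraries.

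**Figure D2:**
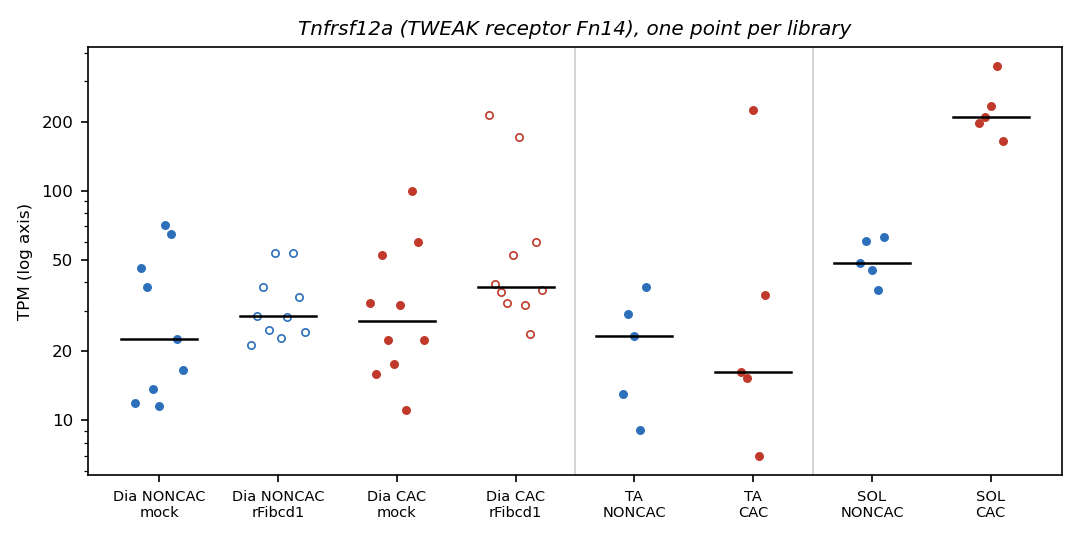
TPM of Tnfrsf12a in each library (y axis, log scale) for the 8 groups (x axis), with blue for NONCAC, red for CAC, open points for rFibcd1 and a bar at the group median. All 5 CAC soleus libraries, from 165 to 348 TPM, lie above the 5 NONCAC soleus libraries, while the diaphragm groups overlap and a single TA library stands at 225 TPM.

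Tnfrsf1a (chr6:125349362-125362484, plus strand), the gene of TNF receptor 1, the widely expressed receptor with a death domain, was higher with the CAC tumour in all muscles and without overlap in any. Mock diaphragm libraries held 29.8 to 44.3 TPM in NONCAC mice (median 36.9) and 49.1 to 102 TPM in CAC mice (median 69.0). This was a log2 fold change of 0.98 (SE 0.14 by limma, adjusted p = 1.04e-05), or 0.75 after median-ratio scaling. In TA the 5 NONCAC libraries of Tnfrsf1a lay between 9.87 and 12.7 TPM, and the CAC libraries held 25.3, 28.1, 31.6, 32.2 and 71.1 TPM. Even without the library at 71.1 TPM the log2 fold change was 1.31, against 1.56 (SE 0.23, limma adjusted p = 0.000673) with it. In soleus NONCAC libraries held 30.1 to 38.1 TPM and CAC libraries 46.8, 57.7, 57.9, 59.3 and 93.3 TPM, or 0.84 on the log2 scale (SE 0.15, limma adjusted p = 0.00311). Tnfrsf1a was the clearest of the 10 genes in diaphragm by adjusted p.

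Tnfrsf1b (chr4:145213463-145246870, minus strand), the gene of TNF receptor 2, which is found mainly on immune and endothelial cells, was also higher in all muscles. In TA the NONCAC libraries held 1.17, 1.38, 1.60, 1.85 and 1.95 TPM and the CAC libraries 4.03, 5.25, 5.63, 7.25 and 13.7 TPM. In soleus it went from 2.48 to 3.32 TPM in NONCAC libraries to 5.41, 5.92, 7.25, 8.69 and 11.2 TPM in CAC libraries. Neither limb muscle showed overlap, with log2 fold changes of 1.56 (SE 0.24, limma adjusted p = 0.000813) and 1.03 (SE 0.16, limma adjusted p = 0.00152). In mock diaphragm NONCAC libraries ran from 4.49 to 9.47 TPM (median 7.75) and CAC libraries from 7.80 to 20.4 TPM (median 12.8), and 8 of 10 CAC libraries were above the highest NONCAC library. The diaphragm log2 fold change of 0.79 (SE 0.27 by limma, adjusted p = 0.0243) lost the call after median-ratio scaling (0.59, adjusted p = 0.058), with the Pcna-ps2 split as a term (0.32, adjusted p = 0.42) and among high-state libraries alone (0.85, adjusted p = 0.092). Of the endothelial markers 3 of 5 were called higher in mock diaphragm, 3 of 5 in TA (with 1 lower) and 1 of 5 in soleus (with 1 lower). Macrophage markers were called higher for 3 of the 7 tested in diaphragm, 6 of 6 in TA and 2 of 7 in soleus, where their median log2 fold change was 0.19 and their sums overlapped between the groups. Neutrophil markers were called higher for 3 of 4, 2 of 2 and 2 of 2. Beside these marker counts 30.9%, 56.4% and 17.5% of all genes tested were called higher in mock diaphragm, TA and soleus. The part of these cells in the Tnfrsf1b values was not tested.

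Map3k14 (chr11:103219762-103267472, minus strand), the gene of the NIK kinase of the non-canonical branch, was higher with the CAC tumour in all 3 muscles, without overlap in any. Mock diaphragm libraries held 2.75 to 3.88 TPM in NONCAC mice (median 3.496) and 4.08 to 11.2 TPM in CAC mice (median 5.27), so that every CAC library was higher. TA libraries went from 1.74, 1.79, 1.86, 2.22 and 2.69 TPM to 3.33, 3.68, 3.90, 4.18 and 10.1 TPM. Soleus libraries went from 2.99, 3.11, 3.14, 3.43 and 3.65 TPM to 4.53, 5.21, 5.56, 5.62 and 10.6 TPM. The separation was thus complete in each muscle although 1 CAC library stood far above the rest in each. The log2 fold changes of Map3k14 were 0.63 (SE 0.15, limma adjusted p = 0.00172), 0.89 (SE 0.23, adjusted p = 0.0087) and 0.73 (SE 0.17, adjusted p = 0.0109) for diaphragm, TA and soleus. An exon of Map3k14 overlaps the gene 1700028N14Rik on the same strand, so reads there could have been split between them. Among high-state diaphragm libraries alone the value was 0.57 and the call was lost (adjusted p = 0.099).

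The Rel subunit genes moved less evenly. Nfkb1 (chr3:135584655-135691547, minus strand), which encodes p105 and its product p50, was called higher in TA, and in TA alone, and the difference in effect between TA and soleus was 0.43 (limma adjusted p = 0.051). Its TA libraries held 6.74, 6.82, 7.09, 7.39 and 7.57 TPM in NONCAC mice and 9.67, 10.1, 10.2, 11.3 and 17.6 TPM in CAC mice. Nfkb1 had a log2 fold change of 0.62 there (SE 0.15, limma adjusted p = 0.00697), of which 0.17 was left after median-ratio scaling (adjusted p = 0.019). In mock diaphragm the range was 11.7 to 15.9 TPM in NONCAC and 13.7 to 20.5 TPM in CAC libraries, and in soleus 11.9 to 13.4 and 12.5 to 16.6 TPM. Both sets of ranges overlapped, with log2 fold changes of 0.30 (SE 0.14, limma adjusted p = 0.10) and 0.19 (SE 0.09, limma adjusted p = 0.13). The diaphragm value passed in a fit of the compared groups alone (adjusted p = 0.00356).

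Nfkb2 (chr19:46304320-46312385, plus strand), which encodes p100 and its product p52, was called higher in all 3 muscles, but these were the least secure of the calls. In mock diaphragm NONCAC libraries held 13.0 to 20.5 TPM (median 16.5) and CAC libraries 15.7 to 33.7 TPM (median 22.5). Its log2 fold change of 0.44 (SE 0.17) had a limma adjusted p of 0.0464 and lost the call when any of 11 of the 19 libraries was left out, after median-ratio scaling (0.22) and with the Pcna-ps2 split as a term (0.17). In TA Nfkb2 went from 4.69, 4.87, 5.15, 6.13 and 6.86 TPM to 8.72, 9.06, 9.18, 10.6 and 34.5 TPM. The TA groups did not overlap, and the log2 fold change of 1.03 (SE 0.31 by limma, adjusted p = 0.0163) was 0.67 without the library at 34.5 TPM and lost the call after median-ratio scaling (0.58, adjusted p = 0.051). In soleus it went from 11.8, 12.2, 13.6, 14.8 and 16.9 TPM to 15.8, 16.9, 20.5, 31.0 and 31.5 TPM, which overlapped slightly, with 0.65 on the log2 scale (SE 0.19, limma adjusted p = 0.0295), a call that held in 5 of the 10 fits with a library left out and was lost without a filter (adjusted p = 0.055) and by Dunn's test (adjusted p = 0.064). Exons of Nfkb2 overlap the genes AC114539.1 and Psd on the opposite strand, and it is not given whether strand was used in counting.

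Relb (chr7:19606217-19629438, minus strand), the partner of p52, was higher in the limb muscles and was not called in diaphragm. TA libraries held 1.58, 1.69, 1.83, 2.10 and 2.22 TPM in NONCAC mice and 3.09, 3.27, 3.62, 3.83 and 7.51 TPM in CAC mice. Soleus libraries held 3.36, 3.48, 4.16, 4.76 and 4.80 TPM and 5.20, 5.81, 6.21, 7.50 and 8.96 TPM. Neither muscle showed overlap, and the log2 fold changes of Relb were 0.82 (SE 0.18, limma adjusted p = 0.00524) and 0.59 (SE 0.14, limma adjusted p = 0.0116). In mock diaphragm the medians were 4.47 TPM in NONCAC and 4.25 TPM in CAC libraries, within ranges of 2.65 to 5.38 and 3.62 to 7.84 TPM. The change there was 0.23 on the log2 scale with a 95% interval of -0.16 to 0.63 (limma adjusted p = 0.35). The difference in effect between diaphragm and TA was -0.58 (limma adjusted p = 0.11), and passed with a block by column number (-0.57, adjusted p = 0.0417), a pairing that no label gives.

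Nfkbia (chr12:55489410-55492647, minus strand), the gene of I kappa B alpha whose promoter match is shown above, was higher in all 3 muscles: its mean TPM in CAC mice was 1.95 times that in NONCAC mice in TA as in soleus, and 1.75 times in mock diaphragm. Soleus libraries held 28.5, 33.5, 35.0, 42.1 and 43.5 TPM in NONCAC mice and 66.2, 72.0, 72.3, 72.8 and 73.7 TPM in CAC mice. The CAC libraries lay close together and far above every NONCAC library (log2 fold change 0.96, SE 0.11, limma adjusted p = 0.000211). In TA Nfkbia went from 18.7, 19.2, 25.1, 27.9 and 28.6 TPM to 37.4, 42.5, 45.9, 48.1 and 58.6 TPM, again without overlap (0.94, SE 0.15, limma adjusted p = 0.0012), although 0.45 was left after median-ratio scaling (adjusted p = 0.023). In mock diaphragm NONCAC libraries held 28.7 to 44.2 TPM (median 34.4) and CAC libraries 35.0 to 89.1 TPM (median 62.2). Of the 10 CAC libraries 9 were above the highest NONCAC library. The exception, at 35.0 TPM, was also the single CAC mock library that was low for Pcna-ps2. The log2 fold change of 0.77 (SE 0.16 by limma, adjusted p = 0.00053) was 0.55 with the Pcna-ps2 split as a term (adjusted p = 0.015).

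Bcl3 (chr7:19808462-19822770, minus strand), the gene of the nuclear I kappa B protein, had the highest log2 fold change of the 10 genes in mock diaphragm, though it stood above that of Tnfrsf1a by less than its SE. Mock diaphragm libraries held 1.72 to 4.26 TPM in NONCAC mice (median 3.04) and 4.47 to 14.4 TPM in CAC mice (median 8.54). The groups did not overlap, with a log2 value of 1.17 (SE 0.24, limma adjusted p = 0.000539), or 0.89 with the Pcna-ps2 split as a term (adjusted p = 0.014). In TA Bcl3 went from 0.230, 0.350, 0.448, 0.509 and 0.727 TPM to 2.03, 2.63, 2.95, 2.98 and 7.97 TPM. Since no NONCAC library reached 1 TPM, Bcl3 entered the TA test through its CAC libraries alone, and its TA values are given as a description without a test: the log2 fold change was 1.59 on the TPM + 1 scale, which understates the ratio of the means, 8.19. In soleus it went from 0.9754, 1.02, 1.02, 1.75 and 1.90 TPM to 2.06, 2.95, 3.61, 4.02 and 8.47 TPM (log2 fold change 1.07, SE 0.26, limma adjusted p = 0.0112). Each of the 3 muscles thus had all CAC libraries above all NONCAC libraries. The gene Gm16175 overlaps Bcl3 exons on the opposite strand.

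Tnfaip3 (chr10:19000910-19015657, minus strand), the gene of the negative regulator A20, was not called in any muscle. Its medians were 1.62 and 1.93 TPM in NONCAC and CAC mock diaphragm, 1.23 and 1.66 TPM in TA, and 1.31 and 1.10 TPM in soleus. Ranges overlapped throughout, and the 95% intervals of the log2 fold change were -0.35 to 0.64, -0.24 to 0.56 and -0.37 to 0.43. After median-ratio scaling the values were -0.01, -0.14 and -0.02. At levels this low the added 1 TPM shrinks any fold change. The promoter of Tnfaip3 held a kappaB match next to its start, as shown above, as did that of Nfkbia, and the call was made for Nfkbia in all 3 muscles and for Tnfaip3 in none.

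**Figure D3:**
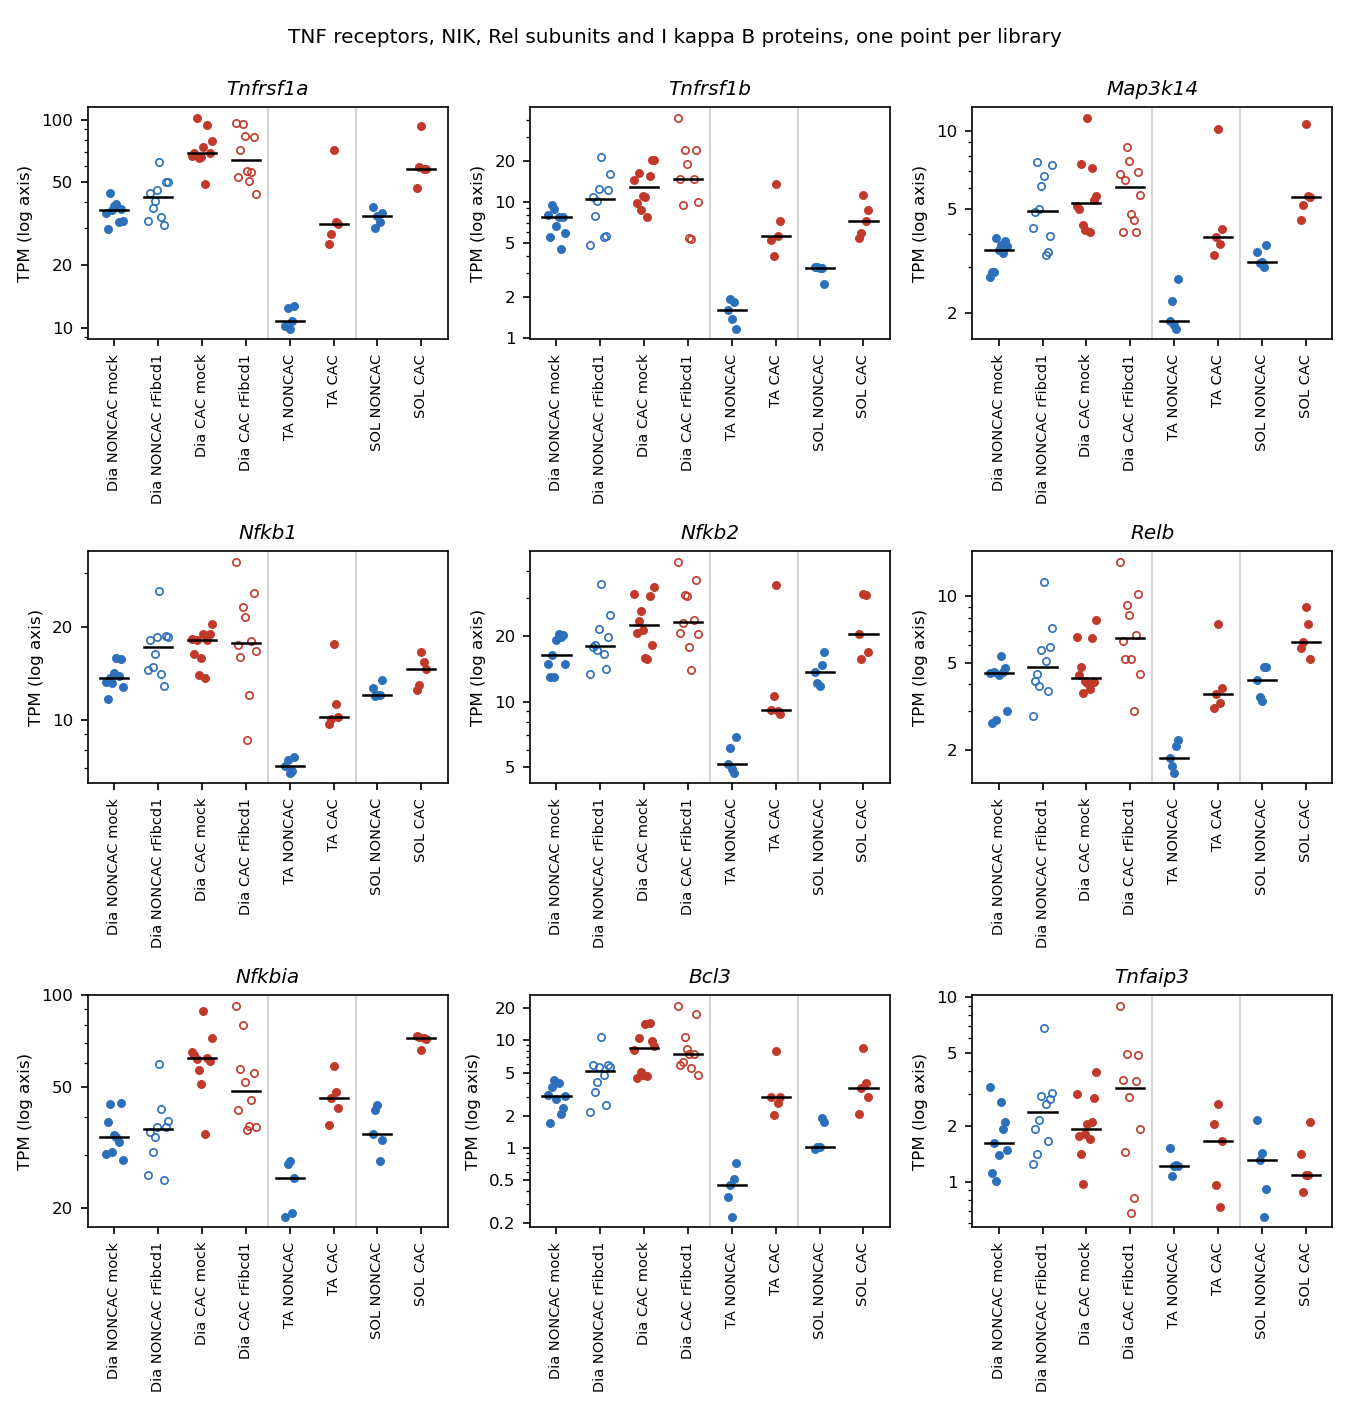
TPM of the 9 genes other than Tnfrsf12a in each library (y axis, log scale) for the 8 groups (x axis), with blue for NONCAC, red for CAC, open points for rFibcd1 and a bar at the group median. Tnfrsf1a, Map3k14 and Bcl3 show CAC points wholly above NONCAC points in mock diaphragm, TA and soleus, TA NONCAC libraries are the lowest group for most genes, and the Tnfaip3 groups overlap.

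The effect of the CAC tumour was next compared between muscles in a fit of the 39 libraries without rFibcd1. For diaphragm against TA no gene of the 10 was called (5.04% of 13501 genes), with 4 of 10 at an unadjusted p under 0.05 beside 3295 of the 13501 genes. For diaphragm against soleus none was called (2.52% of genes), with 1 of 10, Tnfrsf12a, at an unadjusted p under 0.05 beside 2134 of the 13501. For TA against soleus 1 of 10, Tnfrsf1a, was called with a larger rise in TA (19.1% of genes called higher): the difference in log2 fold change was 0.73 (SE 0.26, limma adjusted p = 0.0456). That call held in 7 of the 20 fits that left out a TA or soleus library; without the TA library at 71.1 TPM the difference was 0.48, and the call was also lost after median-ratio scaling (0.35, adjusted p = 0.18). For Tnfrsf12a the rise in soleus exceeded that in diaphragm by 1.97 on the log2 scale (95% interval of diaphragm minus soleus -3.49 to -0.45, limma adjusted p = 0.16) and that in TA by 1.70 (TA minus soleus, interval -3.44 to 0.04, limma adjusted p = 0.14). These tests of the difference did not pass. With the libraries blocked by the number in their column names, which no label ties to a mouse, Tnfrsf12a passed for TA minus soleus (limma adjusted p = 0.0488) and not for diaphragm minus soleus (adjusted p = 0.061). The block also called Nfkb1 for TA minus soleus (0.43, limma adjusted p = 0.00802), where it called 5569 of the 13501 genes. For diaphragm minus TA it called Tnfrsf1a (-0.59, limma adjusted p = 0.0184), Tnfrsf1b (-0.85, adjusted p = 0.0118) and Relb (-0.57, adjusted p = 0.0417), all with the smaller rise in diaphragm, beside 2317 of the 13501 genes. Without TA library 3 the Tnfrsf12a difference between TA and soleus was -2.45 with a limma adjusted p of 0.0259.

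Under rFibcd1 the CAC to NONCAC comparison of the diaphragm called 3 of the 10 genes higher (7.14% of 13426 genes), namely Tnfrsf1a, Nfkbia and Bcl3. Tnfrsf1a ran from 31.3 to 62.8 TPM in NONCAC (median 42.5) and 43.6 to 96.4 TPM in CAC libraries (median 64.0), with a log2 fold change of 0.65 (SE 0.14 by limma, adjusted p = 0.00315). Bcl3 ran from 2.14 to 10.7 TPM (median 5.19) and 4.81 to 21.0 TPM (median 7.50), with 0.75 (SE 0.24, limma adjusted p = 0.0401). Nfkbia ran from 24.7 to 59.7 TPM (median 36.3) and 36.1 to 92.6 TPM (median 48.6), with 0.51 (SE 0.16, limma adjusted p = 0.0346). All 3 sets of ranges overlapped. None of the 3 calls held by Dunn's test (adjusted p = 0.10 for Tnfrsf1a) or among high-state libraries alone (0.52, adjusted p = 0.30 for Tnfrsf1a), and these alternatives called 0 of all 13426 and 0 of all 14159 genes tested. The calls for Nfkbia and Bcl3 were also lost when the 2 groups were fitted alone (adjusted p = 0.11 and 0.10), and for Bcl3 in 9 and for Nfkbia in 8 of the 20 fits with a library left out.

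Whether rFibcd1 itself shifted these genes was asked by setting rFibcd1 against mock libraries for each tumour line, comparisons that share their mock or treated groups with those above. No gene of the 10 was called by limma in CAC mice (0.0447% of 13426 genes called in either direction) or in NONCAC mice (0.417%), and the Dunn test also called 0. At an unadjusted p under 0.05 there were 2 of 10 in CAC mice, Tnfrsf12a and Relb, beside 1412 of 13426 genes, and 2 of 10 in NONCAC mice, Bcl3 and Map3k14, beside 2332 of 13426 genes. Tnfrsf12a had a median of 38.0 TPM under rFibcd1 and 27.2 TPM under mock in CAC diaphragm, and the log2 difference of 0.80 (95% interval 0.02 to 1.58, limma adjusted p = 0.47) drew on 2 rFibcd1 libraries at 215 and 172 TPM. The other 8 lay between 23.8 and 59.98 TPM, inside the mock range of 11.1 to 100.1 TPM. Relb ran from 3.62 to 7.84 TPM under mock and from 3.00 to 14.4 TPM under rFibcd1, a log2 difference of 0.41 (interval 0.02 to 0.79, limma adjusted p = 0.45).
In NONCAC diaphragm Map3k14 had a median of 3.496 TPM under mock, within 2.75 to 3.88, and of 4.93 TPM under rFibcd1, within 3.32 to 7.57. Its log2 difference was 0.48 (interval 0.18 to 0.78, limma adjusted p = 0.17), and a fit of these 2 groups alone called it (adjusted p = 0.020) together with Nfkb1 (0.28, adjusted p = 0.047). That fit called 2453 of 12541 genes, against 56 of 13426 with all 4 groups. Nfkbia differed least there, by 0.02 (interval -0.30 to 0.35). In these groups 3 of 9 mock and 6 of 10 rFibcd1 libraries were high for Pcna-ps2, and the Map3k14 difference was 0.41 with that split as a term (adjusted p = 0.38).
The interaction, the difference between the rFibcd1 effects in CAC and NONCAC mice, was called for 0 of the 10 genes (0.0223% of 13426 genes), with 1 of 10, Map3k14, at an unadjusted p under 0.05 beside 1180 of 13426 genes (-0.46, interval -0.88 to -0.04, limma adjusted p = 0.55). The upper ends of the rFibcd1 intervals reached 1.58 for Tnfrsf12a in CAC mice, and 1.04 for Tnfrsf12a, 1.02 for Bcl3 and 0.97 for Tnfrsf1b in NONCAC mice, so these intervals include shifts up to those sizes.

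**Figure D4:**
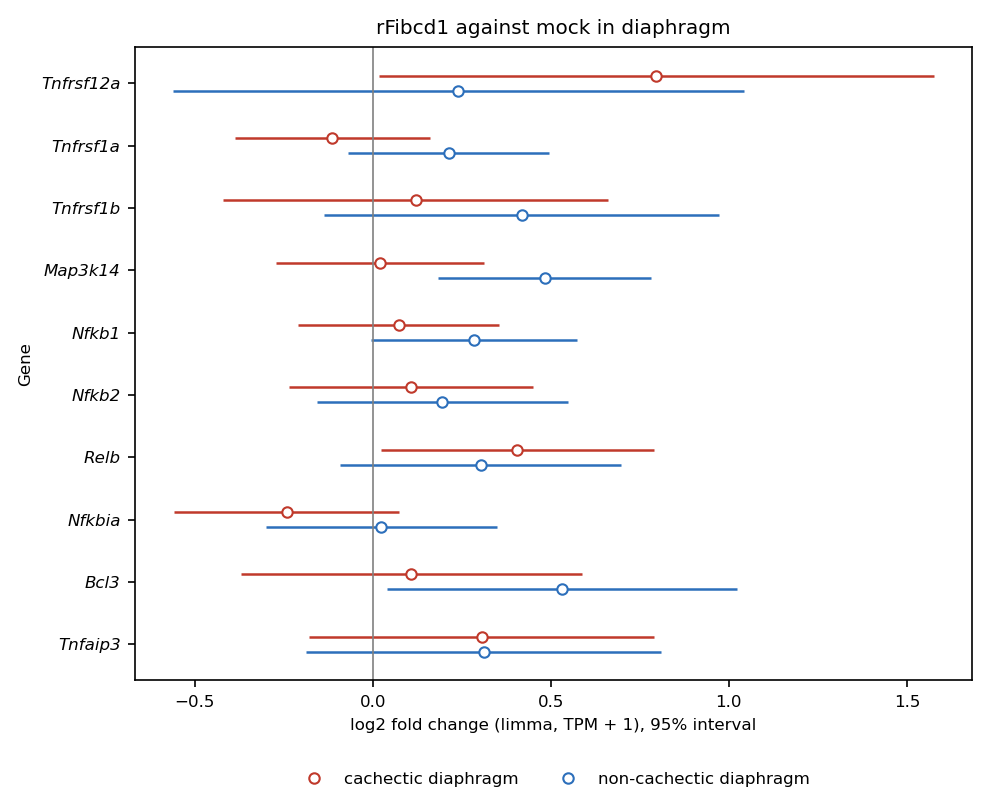
Log2 difference between rFibcd1 and mock diaphragm libraries (TPM + 1, x axis) for each of the 10 genes (y axis) in CAC (red) and NONCAC (blue) mice, with 95% intervals from limma. All points are open because none passed the adjusted p threshold of 0.05, and the widest intervals belong to Tnfrsf12a.

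The ligands of these receptors were read from the wider pathway lists; Tnfsf12, Tnf and Cd163 are named for their role, outside the rule that picked the genes below. Tnfsf12, the gene of TWEAK, held 13.5 to 20.1 TPM in NONCAC and 10.5 to 25.0 TPM in CAC mock diaphragm, and was called in no muscle (log2 fold changes of 0.26, 0.30 and -0.21 in diaphragm, TA and soleus). So in CAC soleus Tnfrsf12a was higher while Tnfsf12, at 9.41 to 13.8 TPM against 11.5 to 14.9 TPM, was not called. Tnf was near the floor, with group medians from 0.106 to 1.49 TPM, and its highest value was 10.4 TPM in a CAC rFibcd1 diaphragm library. The same library held the highest Tnfrsf12a (215 TPM), Tnfrsf1b (41.6 TPM) and Tnfaip3 (9.00 TPM) of its group, in which it was the highest for every one of the 10 genes but Map3k14, and a macrophage marker sum of 3308 TPM. Cd163, a macrophage scavenger receptor that can take up TWEAK, rose with the CAC tumour in mock diaphragm (log2 fold change 1.56, SE 0.28, limma adjusted p = 0.000158) and TA (1.14, SE 0.36, limma adjusted p = 0.0186), and had 0.12 in soleus (limma adjusted p = 0.81).

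The other genes of the pathway were taken from lists of its ligands, receptors, adaptors, kinases, regulators and targets. Of 17 TNF family ligands 9 were tested in mock diaphragm, 3 in TA and 4 in soleus, and 0, 2 and 0 were called higher. In the list of 23 other receptors of the family and Cd163, 5 of 20, 8 of 12 and 5 of 14 were higher and 0, 2 and 1 lower, with Cd163 among those higher in diaphragm and TA. Of 23 adaptors and ubiquitin ligases 8 of 23, 14 of 21 and 5 of 22 were higher. Among 12 further kinases the counts were 4 of 12, 7 of 11 and 1 of 11, and among 19 further Rel proteins, I kappa B proteins and negative regulators 7 of 18, 10 of 15 and 4 of 17. None of these adaptors, kinases or regulators was called lower. Textbook NF-kappaB target genes, 23 in the list, were called higher in 2 of 17, 6 of 9 and 2 of 10 and lower in 2, 1 and 2. The list medians of the log2 fold change lay between 0.20 and 0.33 in mock diaphragm, where the median of all genes was 0.20, and between -0.08 and 0.25 in soleus, where it was 0.09. In TA they ran from 0.36 for kinases to 1.13 for the target genes, against 0.41 for all genes. These shares are to be set against 30.9%, 56.4% and 17.5% of all genes called higher.

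Of the 118 genes listed 70 were tested in all 3 muscles, and 12 of these (17.1%) were called higher in all 3 and 1 lower, beside 12.3% of all genes called higher. Among the 66 with at least 1 TPM in both groups of each muscle it was 10 (15.2%, beside 12.1% of all such genes), without Map3k8 and Nfkbiz. Junb, an AP-1 subunit that responds to many stimuli, rose most, with log2 fold changes of 1.54, 2.17 and 1.60 in diaphragm, TA and soleus. Ltbr, the lymphotoxin beta receptor that feeds the non-canonical branch, rose by 0.61, 1.23 and 0.61. From the list of adaptors and ubiquitin ligases Myd88 (0.80, 1.33 and 0.75), Irak3 (0.98, 1.26 and 0.72) and Malt1 (0.49, 1.19 and 0.52) also rose. Their products take part in signalling below Toll-like, interleukin-1 and antigen receptors. The kinase gene Map3k8 had 0.95, 1.12 and 0.91. It did not reach 1 TPM in both groups of every muscle, so its values are a description without a test. Among regulators, Otulin, a deubiquitinase for linear chains, rose by 0.74, 0.79 and 1.28. Nfkbiz, a nuclear I kappa B protein like Bcl3, had 0.76, 0.76 and 0.64, a description under the same limit as Map3k8. Tnip2, a binding partner of A20, had 0.64, 1.06 and 0.51, and Rel, which encodes c-Rel, 0.63, 0.50 and 0.49. The receptor gene Tnfrsf22 (0.33, 0.66 and 0.36) and Sharpin, a subunit of the linear ubiquitin ligase (0.40, 0.39 and 0.44), had the lowest mean over the 3 muscles of the 12 called higher, and the TA value of Sharpin was under the median of all genes there. Sod2, the mitochondrial superoxide dismutase and a textbook NF-kappaB target, fell by 0.30, 0.55 and 0.44.

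Because Tnfrsf12a varied so widely within diaphragm groups, the genes whose pattern was most like it were sought among 9055 genes over the 39 diaphragm libraries after each group mean was removed. The highest Pearson correlations were those of Rnf115 (0.84), Pdcd7 (0.81), Rcan1 (0.80), Xirp1 (0.80) and 2010111I01Rik (0.79), with Spearman values of 0.73 to 0.83. Rcan1 is a calcineurin inhibitor and Xirp1 an actin-binding protein of the muscle fibre. Without the 2 libraries whose Tnfrsf12a lay farthest from the group mean these correlations were 0.72 to 0.80. Tnfaip3, with a mean under 5 TPM, was not compared. Of the other 8 genes described here Bcl3 came nearest, at 0.38 and rank 874, which dropped to 0.19 without the same 2 libraries. The libraries share batch, depth and RNA quality to an unknown degree, so these values are a description.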

How the data were processed

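RNA was sequenced from diaphragm, tibialis anterior and soleus of tumour-bearing mice (59 libraries). The authors deposited a table of TPM values per gene, made from trimmed reads with CLC Genomics Workbench on GRCm38/mm10 as their notes and methods state; the annotation was not given in the sources used here. The labels and the methods name different library kits and sequencers, so neither is given. TPM keep no read depth, so no counting precision can be stated, and p-values measure the spread between libraries alone.

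Groups came from the labels. Columns were matched to groups by name and numbered within a group in column order, since column numbers and labelled replicate numbers differ; 0 columns matched no group. Genes with at least 1 TPM in as many libraries as the smallest group were tested with limma 3.58.1 (R 4.3.3, eBayes with trend) on log2(TPM + 1), with all 4 diaphragm groups in 1 fit, each limb muscle in its own, and the mock and limb groups together for differences between muscles. Benjamini-Hochberg adjustment covered all genes tested, and an adjusted p under 0.05 was a call. The scripts were tested on simulated data. Summaries used Python 3.11.15, pandas 2.3.3, numpy 2.4.6 and scipy 1.17.1, and plots matplotlib 3.10.9.

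The 10 genes, the pathway lists and the alternatives were chosen with earlier results of these data known. Values are given for the 10 genes, for list genes called in all 3 muscles, and for the 5 genes most correlated with Tnfrsf12a among those with a mean of at least 5 TPM. Positions are from GENCODE and promoters from RefSeq (GRCm38.p6). Alternatives were a pseudocount of 0.1, no filter or a mean of at least 5 TPM, median-ratio scaling, Dunn's test and fits of the compared groups alone. Others were the Pcna-ps2 split (at 2 TPM) as a term or its high libraries alone, a replicate block, and leaving out each library. Dunn's test was run here without a Kruskal-Wallis step and adjusted by Benjamini-Hochberg over all genes. The authors used Kruskal-Wallis and Dunn's tests with cutoffs on p and fold change and name no adjustment over genes.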

Additional observations from a re-analysis of the deposited data

Results flagged for a closer look

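In each group the highest and lowest library of every gene was compared with its nearest neighbour by Dixon's criterion, which chance passes in about 1 of 20 groups. Of 80 combinations of gene and group 19 passed. CAC TA library 3 accounted for 7 of them, with 225 TPM of Tnfrsf12a, 71.1 of Tnfrsf1a, 17.65 of Nfkb1, 34.55 of Nfkb2, 7.51 of Relb, 7.97 of Bcl3 and 10.1 of Map3k14. The same library had the lowest mitochondrial share (25.1%) and the lowest muscle fibre marker sum (42070 TPM) of its group. Its macrophage, neutrophil, endothelium, fibroblast, mesothelium and melanocyte marker sums were the highest of its group (317, 57.0, 237, 460, 5.55 and 0.211 TPM). Those of B cells, T cells, satellite cells, adipocytes and Schwann cells were not. The part of these in its values was not tested.

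In NONCAC rFibcd1 diaphragm a highest value stood apart for Nfkbia (59.7 TPM), Nfkb1 (26.15), Relb (11.6), Tnfaip3 (6.80) and Bcl3 (10.7). All 5 were values of library 6, which had the highest macrophage, B cell and adipocyte marker sums of its group (1636, 678 and 921 TPM), and the part of these was not tested. In CAC rFibcd1 diaphragm this held for Tnfrsf1b (41.6 TPM) and Tnfaip3 (9.00), both in library 1, whose macrophage markers summed to 3308 TPM. In CAC mock diaphragm it held for Map3k14 (11.2 TPM). In soleus the highest CAC libraries of Tnfrsf1a (93.3 TPM) and Map3k14 (10.6 TPM), the lowest CAC library of Nfkbia (66.2 TPM) and the lowest NONCAC library of Tnfrsf1b (2.48 TPM) stood apart. The 3 CAC values belonged to library 3, which had the lowest mitochondrial share (24.1%) of its group. Its neutrophil, muscle fibre, endothelium, adipocyte, Schwann cell and mesothelium marker sums were the highest of its group (33.6, 86000, 245, 509, 193 and 0.972 TPM). Those of macrophages, fibroblasts, B cells, T cells, satellite cells and melanocytes were not, and the part of these was not tested. Its column name carries the same number as that of CAC TA library 3, which no label ties to a mouse.

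The tumour effect on Tnfrsf1a differed between TA and soleus by 0.73 on the log2 scale (limma adjusted p = 0.0456), and by 0.48 without CAC TA library 3, where it was not called.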

How the results depend on the processing

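Of 802 values of single genes under the alternatives, 742 kept their side of the threshold, 43 lost and 15 gained a call, and 2 called values changed sign: with median-ratio scaling the NONCAC difference of Nfkbia was -0.011 for diaphragm against TA and 0.012 for TA against soleus. Among the 742 were 32 values without a call that changed sign. The cause of the changes was not tested.

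Counts of the 10 genes called that moved by over 1.5 times were as follows, with the counts over all genes in brackets. For CAC against NONCAC under rFibcd1 (3 called) there was 1 without a filter (966 of 23683), 1 in the fit of the 2 groups (335 of 12829) and 0 by Dunn's test (0 of 13426) or in high-state libraries (0 of 14159). In mock diaphragm (6) high-state libraries alone gave 3, from fewer libraries (805 of 14159, against 4501 of 13426). In TA (8, or 7 without Bcl3) a mean of at least 5 TPM gave 4 of 5 tested (4638 of 7415). For rFibcd1 against mock in NONCAC mice (0) the fit of the 2 groups gave 2 (2453 of 12541). For diaphragm minus TA (0) a pseudocount of 0.1 gave 1 (983 of 13501). For TA minus soleus (1) a pseudocount of 0.1 gave 2 (3409 of 13501), a mean of at least 5 TPM 2 of 6 tested (2077 of 8464), no filter 0 (2320 of 23466) and median-ratio scaling 0 (1551 of 13501). In NONCAC mice a mean of at least 5 TPM left 6 genes tested, of which 5 were called for diaphragm against TA (8 of 10 before), 1 for diaphragm against soleus (2 of 10) and 5 for TA against soleus (8 of 10), beside 6013, 3379 and 6327 of 8464 genes. Dunn's test called 5, 0 and 0 of 10 (6884, 1178 and 4990 of 13501), and median-ratio scaling 4 for TA against soleus (7197).

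A replicate block by the number in the column names, which 10 libraries of each muscle share, was added after the data were seen; no label says that a number marks a mouse (consensus correlation 0.38). With the block 3 genes were called for diaphragm minus TA (Tnfrsf1a, Tnfrsf1b and Relb, beside 2317 of 13501 genes) and 3 for TA minus soleus (Tnfrsf12a, Tnfrsf1a and Nfkb1, beside 5569 of 13501 genes). For NONCAC TA against soleus the block called 9 of 10, with Tnfrsf12a gained (limma adjusted p = 0.0187), beside 10281 of 13501 genes. A block by labelled replicate could not be fitted because the columns carry no such numbers, and the Pcna-ps2 split could not be fitted in limb muscle, where it coincides with the tumour line.

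With each library left out the counts ran from 5 to 6 in mock diaphragm, 1 to 3 under rFibcd1, 7 to 8 in soleus, 0 to 1 for diaphragm minus TA (1 without CAC TA library 1), 0 to 2 for TA minus soleus and 6 to 9 for NONCAC TA against soleus, and did not move in the other comparisons. Depth is unknown, so what it limits cannot be given.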
